A study of Mus musculus with 4 samples.

Results

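Isl1 binding was examined at 4 genes, Gli1, Gli2, Gli3 and Sufu, which encode the transcription factors at the end of the hedgehog pathway and their main cytoplasmic inhibitor. The 4 genes were chosen by name out of 21887 protein-coding genes, and every peak whose midpoint lay in one of them or within 500 kb of it was taken. The data were peak lists from chromatin immunoprecipitation followed by sequencing (ChIP-seq), in which an antibody pulls down a protein with the DNA it sits on and the recovered fragments are mapped as peaks. Both Isl1 ChIP samples, and the 2 input DNA samples of sheared chromatin taken without antibody, came from wildtype CD1 mouse genital tubercles at stage E14.5 (embryonic day). The sources used here do not say whether the replicates came from separate litters or from pooled embryos of either sex, so differences between them may be technical. No peak list came with the input DNA, which was not analysed here. There was a single tissue and condition, so no contrast between conditions was possible and no test was run; all values are descriptions.

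Hedgehog ligands bind the receptor Patched, which releases Smoothened and changes the balance of Gli activator and Gli repressor proteins in the nucleus. Gli2 is the main activator, Gli3 is mostly cut to a repressor when the ligand is absent, and Gli1 is an activator whose own gene is switched on by the pathway. Sufu holds Gli proteins in the cytoplasm and favours repressor formation. In the genital tubercle the ligand Sonic hedgehog comes from the urethral plate epithelium and acts on the surrounding mesenchyme. Isl1, a DNA-binding homeodomain protein of the LIM class, is made in this mesenchyme.

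The list of replicate 1 held 8860 peaks and that of replicate 2 held 10162. Each peak carried a whole-number score given by the authors, at least 20 in both lists, with a median of 90 in replicate 1 and 96 in replicate 2. Peaks of the replicates that overlapped by at least 1 bp were joined into 6834 shared regions. The lists hold no read counts, so depth is unknown, and a site under the authors' threshold does not appear. All positions are in mm10.

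Of the 6834 shared regions, 15 lay in the windows of the 4 genes. Gli1 had 5, Gli2 had 3, Gli3 had 4 and Sufu had 3. Exact Poisson 95% intervals, which cover counting error only and treat regions as independent, were 1.62 to 11.7 for Gli1, 0.619 to 8.77 for Gli2 and Sufu and 1.09 to 10.2 for Gli3. The intervals are wide and overlap. With counts this small, that does not show the 4 counts to be alike, and a difference between them was not tested. Their median was 3.5 regions, against 2 over all protein-coding genes, of which 78% had at least 1 region within 500 kb, 43.2% had at least 3, 29% had at least 4 and 19.4% had at least 5. By number alone, the windows were therefore not unusual. A shared region lay inside Gli1, Gli2 and Gli3 and none lay inside Sufu, whereas 8.32% of all protein-coding genes held one. Long genes hold more regions by their length. Among genes within a factor of 1.5 of its length, the share with a region inside was 3.5% for Gli1 (11.7 kb long), 40.3% for Gli2 (220 kb), 47.1% for Gli3 (266 kb) and 18.1% for Sufu (91.9 kb). The region inside Gli1 is thus the one that few genes of its size have. Of the 15 regions, 4 had their midpoint 1 kb or less from the end of a protein-coding gene, as did 13.6% of all shared regions. The windows differed in where the regions lay and in their scores.

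**Figure D1:**
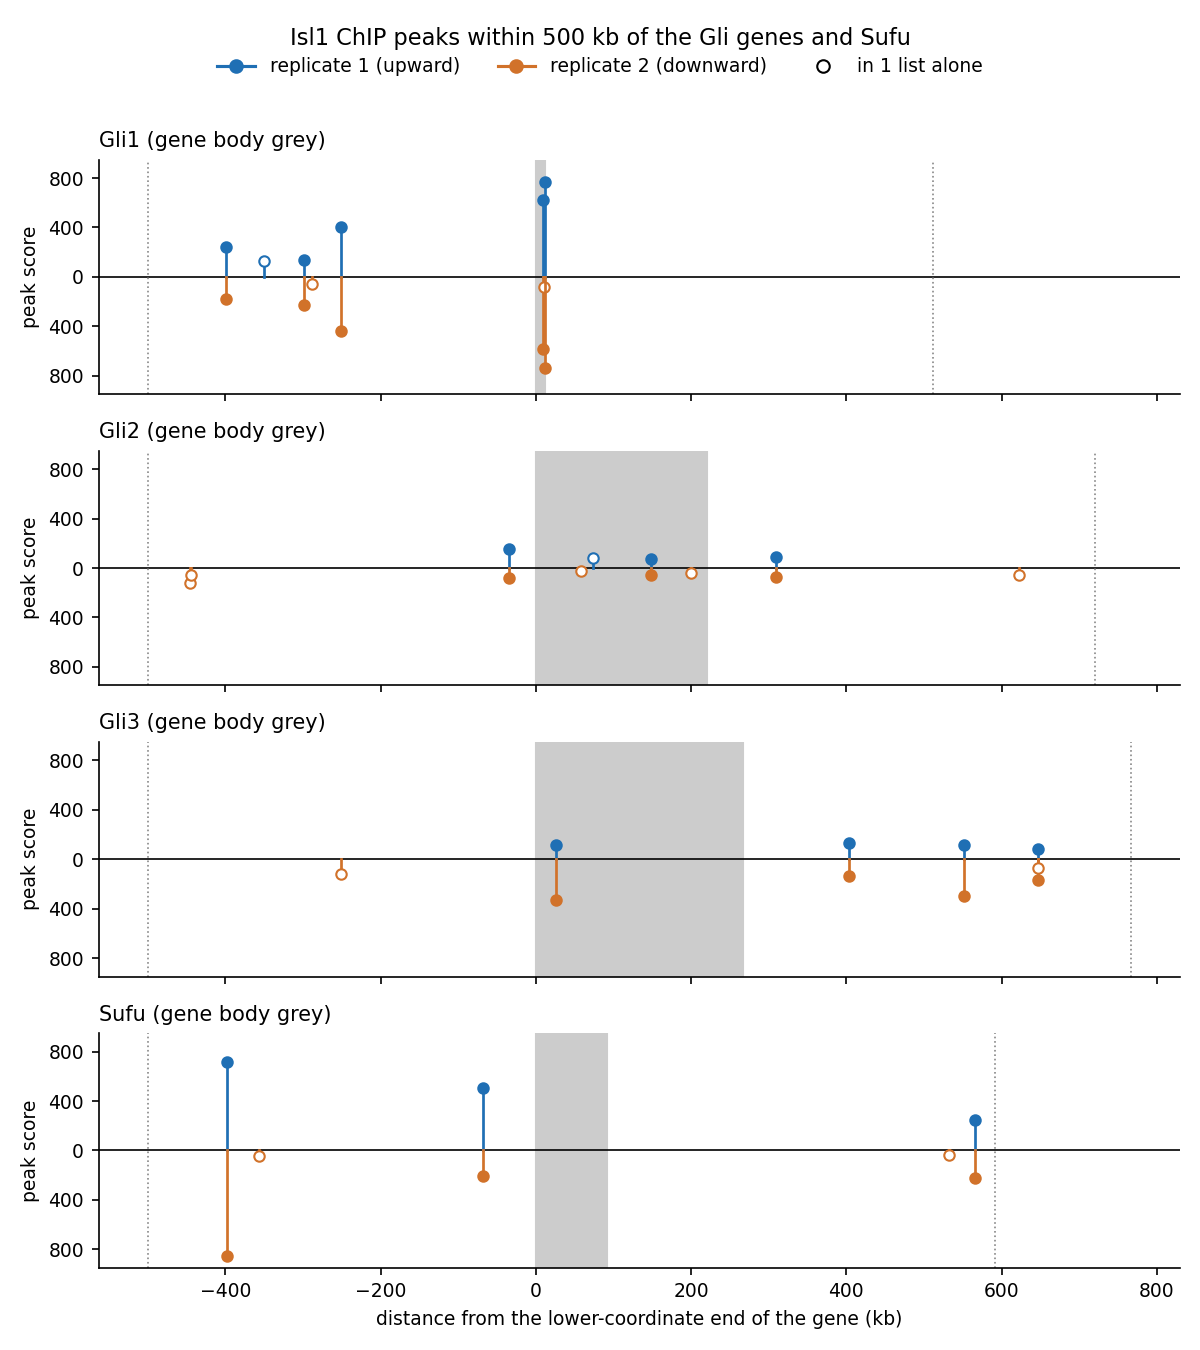
Position and score of every Isl1 peak within 500 kb of Gli1, Gli2, Gli3 and Sufu. The x axis is the distance from the lower-coordinate end of each gene in kb, stems show the authors' peak score (replicate 1 upward, replicate 2 downward), open circles are peaks in 1 list alone, grey is the gene body and dotted lines mark the window. Tall stems stand at Gli1 itself (622 and 766 in replicate 1), while those in the Gli2 window reach 156 at most and those of Sufu lie outside the gene.

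Gli1, the transcriptional activator that is itself a hedgehog target, had the strongest regions of the 4 genes at the gene itself. The gene (Gene ID 14632) spans chromosome 10 from 127329882 to 127341579. One region lay just outside its upper-coordinate end, 452 bp from it (127341936 to 127342127), with a score of 766 in replicate 1 and 741 in replicate 2. A second lay inside the gene, 2.22 kb from the same end (127339242 to 127339523), with scores of 622 in replicate 1 and 583 in replicate 2. The scores of the replicates were close at both sites. Each stood near the top of both lists: 98.0% of replicate 1 peaks and 98.7% of replicate 2 peaks scored lower than the outer region, and 96.7% and 97.2% scored lower than the inner one. The gene table gives no strand; as background knowledge not taken from it, mouse Gli1 is read towards lower coordinates, which makes this end the one where transcription starts.

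A weaker peak lay between them, 1.22 kb inside the gene, in replicate 2 alone (127340309 to 127340416, score 82). Counting shared peaks too, the list of replicate 1 thus placed 1 peak inside Gli1 and that of replicate 2 placed 2. Of all genes, 10.1% had a peak inside in replicate 1 and 10.4% in replicate 2. The midpoints of the shared pair were 2.67 kb apart. Of all shared regions, 12.2% had another within 3 kb, and 0.379% of protein-coding genes (83 of 21887) had one region inside and another within 1 kb beyond an end, as Gli1 did. That last pattern was not a planned result and follows the layout of the Gli1 pair. Its low share is therefore not a measure of how unusual Gli1 is. Within 1 kb of an end, 4.9% of all genes had a region. Regions at gene ends score higher than others in these lists, so the outer region was also ranked among its own kind: of the 932 shared regions within 1 kb of a gene end, which had a median lower score (the lower of the replicates' scores) of 206, 63 scored at least its 741. Among the 2520 regions inside genes and over 1 kb from an end, with a median of 87, 51 scored at least the 583 of the inner region.

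**Figure D2:**
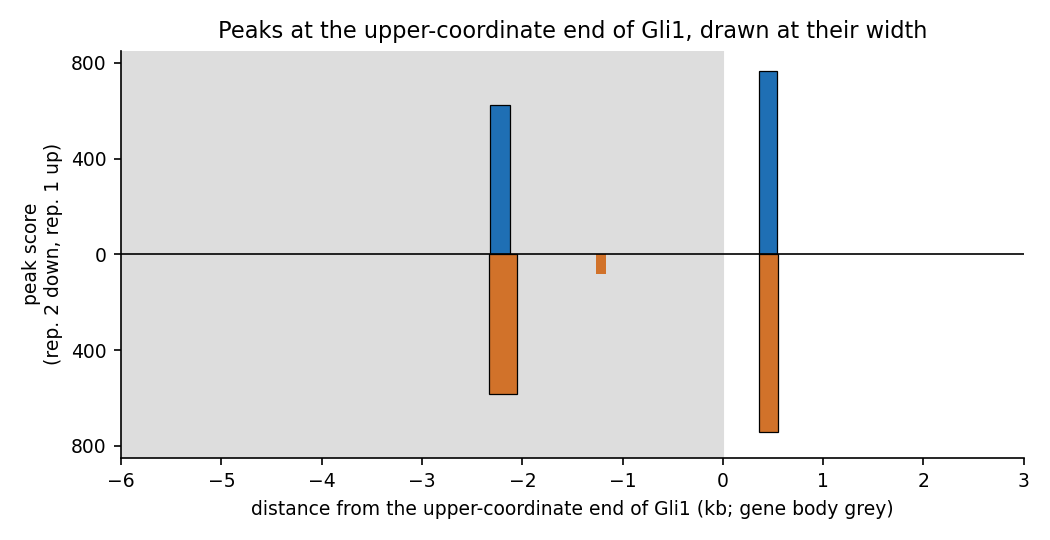
Peaks around the upper-coordinate end of Gli1, each drawn at its width, with the distance from that end in kb on the x axis and the authors' score on the y axis (replicate 1 in blue upward, replicate 2 in orange downward; grey is the gene body). Outlined bars belong to shared regions; both replicates place a peak 452 bp beyond the end and another 2.22 kb inside, and replicate 2 alone adds one of score 82 between them.

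The other 3 shared regions of the Gli1 window all lay on its lower-coordinate side, between 251 and 399 kb away, in a stretch crowded with genes: 41 other protein-coding genes reach into the window. The strongest was inside Agap2, a GTPase-activating protein gene (127078714 to 127078890), with scores of 405 in replicate 1 and 437 in replicate 2. The next lay 28.9 kb from Atp23 (126930846 to 126931090) and had scores of 242 in replicate 1 and 176 in replicate 2. The last was 58 bp from an end of Tsfm, a mitochondrial translation factor gene (127030796 to 127030946), and had scores of 134 in replicate 1 and 228 in replicate 2. The regions at Agap2 and Tsfm both touched the stretch from 250 bp before to 50 bp after an annotated start. Beyond the pair at Gli1, no peak of either list lay in the 500 kb on the upper-coordinate side. The next shared region outside the window was 519 kb away, on the lower-coordinate side, with scores of 145 in replicate 1 and 204 in replicate 2.

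Gli2, the main hedgehog activator, had 1 region inside it and 1 on either side, whose lower scores of 53 to 83 were below the median of 91 over all shared regions. It spans chromosome 1 from 118834061 to 119054405 (Gene ID 14633). The region inside it (118982597 to 118982712) had a score of 73 in replicate 1 and 53 in replicate 2. It lay 71.0 kb from the annotated start of the gene in the RefSeq promoter table, within the gene. A region 34.5 kb beyond the lower-coordinate end (118799457 to 118799702) had scores of 156 in replicate 1 and 83 in replicate 2. Another, 89.6 kb beyond the upper-coordinate end (119143969 to 119144116), had scores of 93 in replicate 1 and 75 in replicate 2. Gli2 was the nearest protein-coding gene to all 3, and 6 other protein-coding genes reach into the window. In each of the 3 regions the score of replicate 1 was the higher one, although 58.9% of all shared regions scored higher in replicate 2. The widest gap was at the region 34.5 kb away, where the replicate 2 score was 0.532 times that of replicate 1, and 6.8% of all shared regions had a ratio as low or lower.

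In the Gli2 window, 1 of 4 peaks of replicate 1 and 5 of 8 peaks of replicate 2 were in a single list. Peaks in a single list were common throughout: 6952 of all 8860 replicate 1 peaks and 6936 of all 10162 replicate 2 peaks belonged to shared regions. Replicate 1 alone had a peak inside the gene (118907689 to 118907846, score 85). Replicate 2 alone had a pair inside it, at 118891522 to 118891650 with a score of 27 and at 119034011 to 119034133 with a score of 38. The gene body thus held 2 peaks in replicate 1 and 3 in replicate 2, of which 1 region was common to both. Replicate 2 alone also had 3 peaks farther out, a pair at Clasp1 with scores of 118 and 59 and one 13.4 kb from Ralb with a score of 59. The window therefore held 4 peaks in replicate 1 and 8 in replicate 2, and its shared regions were gone when both scores had to reach 100. Among the 2520 regions inside genes and over 1 kb from an end, 21.3% had a lower score below the 53 of the one inside Gli2. No peak of either list overlapped the start of Gli2. The nearest to it was 71.0 kb away in replicate 1 and 19.5 kb away in replicate 2.

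The start of Gli2 is shown to set beside those of Gli3 and Sufu, from 250 bp before to 50 bp after the annotated start, in the RefSeq promoter table of build GRCm38.p6 (chr1:119053570-119053869, minus strand). In the 3 sequences of the members, capitals mark TAAT, the core that homeodomain proteins such as Isl1 recognise, GGGCGG, the GC box, and CCAAT, the CCAAT box, each on either strand. Gli1 has no entry in that table.
Gli2: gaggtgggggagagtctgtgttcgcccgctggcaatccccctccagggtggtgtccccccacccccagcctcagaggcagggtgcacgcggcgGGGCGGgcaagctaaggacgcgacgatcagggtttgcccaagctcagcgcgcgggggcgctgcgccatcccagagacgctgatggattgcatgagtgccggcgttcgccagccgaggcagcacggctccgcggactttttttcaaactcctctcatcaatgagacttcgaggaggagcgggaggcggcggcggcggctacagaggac

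Gli3, the main hedgehog repressor, had a single region inside the gene and none closer than 137 kb outside it. The gene (Gene ID 14634) covers chromosome 13 from 15463723 to 15730026. Its region (15489238 to 15489669) lay 25.7 kb downstream of the annotated start, at 9.65% of the gene's length. It stood lower in the list of replicate 1 than in that of replicate 2: the score was 113 in replicate 1, above 61.4% of that list, and 333 in replicate 2, above 91.4%. The replicate 2 score was 2.95 times that of replicate 1, and 4.18% of all shared regions had a ratio at least as high. Both lists placed exactly 1 peak in the gene, at this site.

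The other 3 shared regions of the Gli3 window all lay beyond its upper-coordinate end and nearer to Inhba, the gene of the activin beta A subunit, which is the only other protein-coding gene in the window. One was inside Inhba (16014534 to 16014994), 285 kb from Gli3, with scores of 116 in replicate 1 and 294 in replicate 2. A second was 78.7 kb from Inhba (16110120 to 16110427) and had scores of 85 in replicate 1 and 164 in replicate 2. The third lay 137 kb from each gene, 137.3 kb from Gli3 and 136.9 kb from Inhba (15867021 to 15867506), with scores of 130 in replicate 1 and 137 in replicate 2. Its midpoint, and that of the region inside Inhba, lay in B230303A05Rik, a transcribed pseudogene. The regions at Gli3 and at Inhba thus resembled each other, with scores of 113 and 116 in replicate 1 and of 333 and 294 in replicate 2. On the lower-coordinate side only replicate 2 had a peak, 251 kb from Gli3 (15212487 to 15212683, score 117). A further replicate 2 peak lay beside the region at 16110120 and had a score of 67.

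Gli3's start had no peak in either list. The nearest was the one 25.7 kb downstream. The start sequence is that of the RefSeq promoter table (chr13:15463473-15463772, plus strand).
Gli3: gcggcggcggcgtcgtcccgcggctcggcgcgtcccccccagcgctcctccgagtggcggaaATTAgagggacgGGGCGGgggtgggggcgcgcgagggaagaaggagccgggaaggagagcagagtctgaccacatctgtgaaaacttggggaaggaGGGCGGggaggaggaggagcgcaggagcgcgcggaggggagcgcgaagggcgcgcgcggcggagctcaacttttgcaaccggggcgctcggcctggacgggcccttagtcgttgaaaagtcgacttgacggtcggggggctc

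Sufu, which encodes the inhibitor that binds Gli proteins, had no peak inside it in either list. The gene (Gene ID 24069) spans chromosome 19 from 46396896 to 46488804. Its start was free of peaks, and the nearest peak of both lists was the same one, 68.3 kb before it (46328445 to 46328726), with a score of 507 in replicate 1 and 207 in replicate 2. That region lay inside Fbxl15, an F-box protein gene, 401 bp from an end of it. Sufu was the nearest protein-coding gene to none of its 3 regions, and 23 other protein-coding genes reach into the window. The strongest, 398 kb away, was inside Armh3, 72 bp from an end of it (45998462 to 45998653), with scores of 714 in replicate 1 and 856 in replicate 2. The third, 474 kb away, was inside Nt5c2, a nucleotidase gene (46962340 to 46962651), and had scores of 249 in replicate 1 and 225 in replicate 2. So all 3 regions of the Sufu window had a lower score above the median of 91 over all shared regions, and each lay in another gene. Among the 932 regions within 1 kb of a gene end, 91.5% had a lower score below that at Armh3. For the region at Fbxl15 that share was 50.8%, so it was ordinary for its kind. Among the 2520 regions inside genes and over 1 kb from an end, 86.7% had a lower score below that at Nt5c2. The next shared region beyond the window was 613 kb away, with scores of 977 in replicate 1 and 990 in replicate 2.

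The start of Sufu is given from the RefSeq promoter table (chr19:46396646-46396945, plus strand).
Sufu: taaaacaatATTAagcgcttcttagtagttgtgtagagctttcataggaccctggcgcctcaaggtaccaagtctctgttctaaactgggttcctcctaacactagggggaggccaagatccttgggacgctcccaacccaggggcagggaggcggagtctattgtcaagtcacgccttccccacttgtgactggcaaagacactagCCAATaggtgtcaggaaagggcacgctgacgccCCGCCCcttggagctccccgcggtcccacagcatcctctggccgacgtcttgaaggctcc

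GC content was 67.3% for the start of Gli2, 71.0% for that of Gli3 and 56.3% for that of Sufu, against a median of 52.7% over 32851 promoters of the same length. Searched on both strands, TAAT had no match at the start of Gli2 and 1 each at those of Gli3 and Sufu, and 58.0% of the 32851 promoters held it. Of the longer forms, which all contain that core, TAATG was found in 26.8% of promoters. The form CTAATG was found in 7.36% of them and the form TAATTA in 5.29%, and these 3 forms had no match in the members' sequences. GGGCGG had 1 match at Gli2, 2 at Gli3 and 1 at Sufu (35.7% of promoters), and CCAAT had 1 at Sufu (37.4%). CANNTG, the E-box, had 1 match each at Gli3 and Sufu (72.3% of promoters). The Gli binding sequence GACCACCCA had no match in the 3 sequences (0.253% of promoters). Those 3 starts were like most in touching no shared region: 2.81% of the 32851 promoters touched one.

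Gli1 has no entry among the annotated starts, so a region touching its start could not be counted. In the windows, 4 of 15 shared regions touched an annotated start, all of other genes (Tsfm, Agap2, Armh3 and Nt5c2), against 10.7% of all shared regions. The start of Armh3, at the strongest of them, is shown as a sequence under peaks of both replicates, and here capitals mark the bases that both peaks cover. These run from base 103 to base 254 of the 300 and include the start site at base 251 (chr19:45998439-45998738, minus strand, GRCm38.p6). The letters TAAT were not found in it on either strand, nor was a CCAAT or GC box. Over all 300 bases, the other touched starts did hold such matches. Tsfm had 2 of TAAT and 1 each of GGGCGG and CCAAT, and Agap2 had 1 of each. The 3 annotated starts of Nt5c2 had 1 to 4 of GGGCGG and 0 or 1 of TAAT. Every TAAT and CCAAT match at these starts lay outside the bases that peaks of both replicates cover. The GGGCGG matches of Tsfm and Agap2 lay within them.
Armh3: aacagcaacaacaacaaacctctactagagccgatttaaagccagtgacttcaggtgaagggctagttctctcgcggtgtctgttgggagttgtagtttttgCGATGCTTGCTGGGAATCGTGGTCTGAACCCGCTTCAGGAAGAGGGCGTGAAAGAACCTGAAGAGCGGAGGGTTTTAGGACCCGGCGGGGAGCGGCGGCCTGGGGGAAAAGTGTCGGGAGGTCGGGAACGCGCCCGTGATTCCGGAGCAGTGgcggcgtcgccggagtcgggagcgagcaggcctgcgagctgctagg

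Set side by side, the regions differed by window in score and width, though several lay nearer to other genes than to the member. The pair at Gli1 itself and the Armh3 region of the Sufu window were strong and of ordinary width. The pair at Gli1 was 192 and 282 bp wide, and that at Armh3 was 192 bp. Gli2 had the lowest median score and width: its regions were 116, 148 and 246 bp wide, with a median width of 148 bp and a median lower score of 75. Of all shared regions, 0.380% were narrower than the one inside Gli2. The Gli3 window held the 3 widest of the 15, at 432, 486 and 461 bp, and a region of 308 bp, although their lower scores of 85 to 130 were ordinary. Their median width of 446.5 bp compares with 251 bp over all 6834 shared regions (quartiles 187 and 342 bp) and with 255 bp over the 1445 regions whose lower score lay in the same range. The median lower score of the 15 regions was 134, against 91 over all. That median takes in regions at other genes: Gli1 was the nearest protein-coding gene to 2 regions, Gli2 to 3, Gli3 to 1 and Sufu to none. It also takes in 4 regions within 1 kb of a gene end, a kind with a median lower score of 206.

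**Figure D3:**
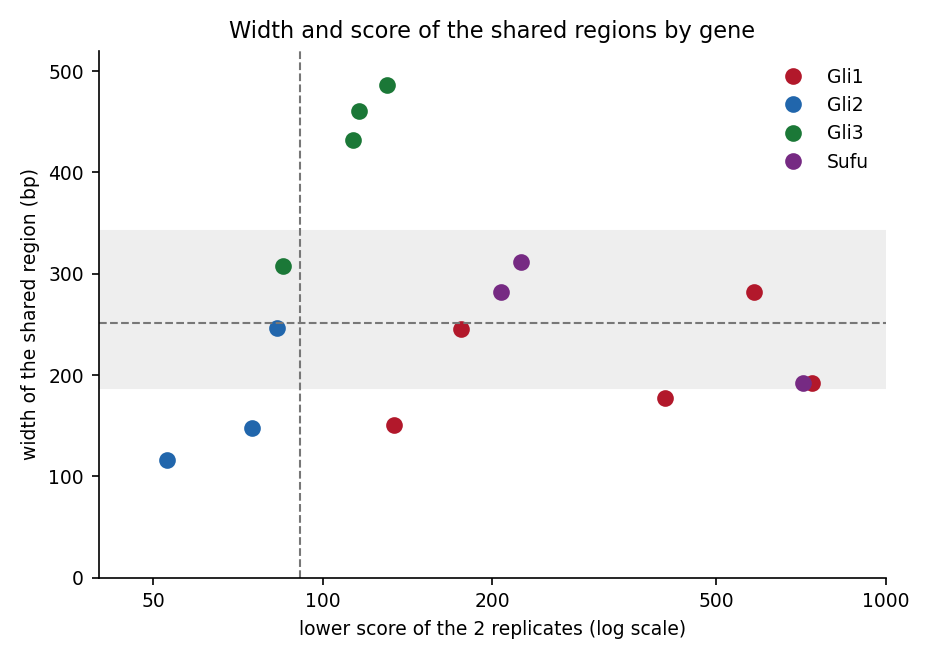
Width in bp (y axis) against the lower of the replicates' scores (x axis, log scale) for the 15 shared regions, coloured by the gene whose window they lie in. Dashed lines are the medians over all 6834 shared regions (251 bp and 91) and the band holds the middle part of widths, from 187 to 342 bp; 3 of the 4 Gli3 window regions lie above the band and 2 of the 3 Gli2 regions lie below it.

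The replicates placed the regions differently within their lists. For the pair at Gli1 the 2 lists gave nearly the same standing, within 1 percentage point, near the top of the scale where little room is left. Farther off in the Gli1 window, the region near Atp23 scored above 85.5% of peaks in replicate 1 and 76.9% in replicate 2. The region at Tsfm scored above 68.2% and 83.8%, and that at Agap2 above 93.2% and 94.7%. The Gli2 regions stood lower in replicate 2: the one 34.5 kb away scored above 73.9% of peaks in replicate 1 and above 39.9% in replicate 2, and the one inside above 37.8% and 16.6%. For Gli3 the order was the opposite at the region inside the gene and at 2 of the 3 others. The region inside Inhba, for example, scored above 62.7% of peaks in replicate 1 and above 89.1% in replicate 2. By score, replicate 2 was the higher one in 58.9% of all shared regions, so that order is common. In the Sufu window, the region at Fbxl15 scored above 95.2% of peaks in replicate 1 and 82.0% in replicate 2. The one at Armh3 scored above 97.6% and 99.2%, and the one at Nt5c2 above 86.1% and 83.6%. Nothing in the sources states that scores can be compared between libraries, and with 1 list per replicate the part of depth or of the calling in these differences was not tested.

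**Figure D4:**
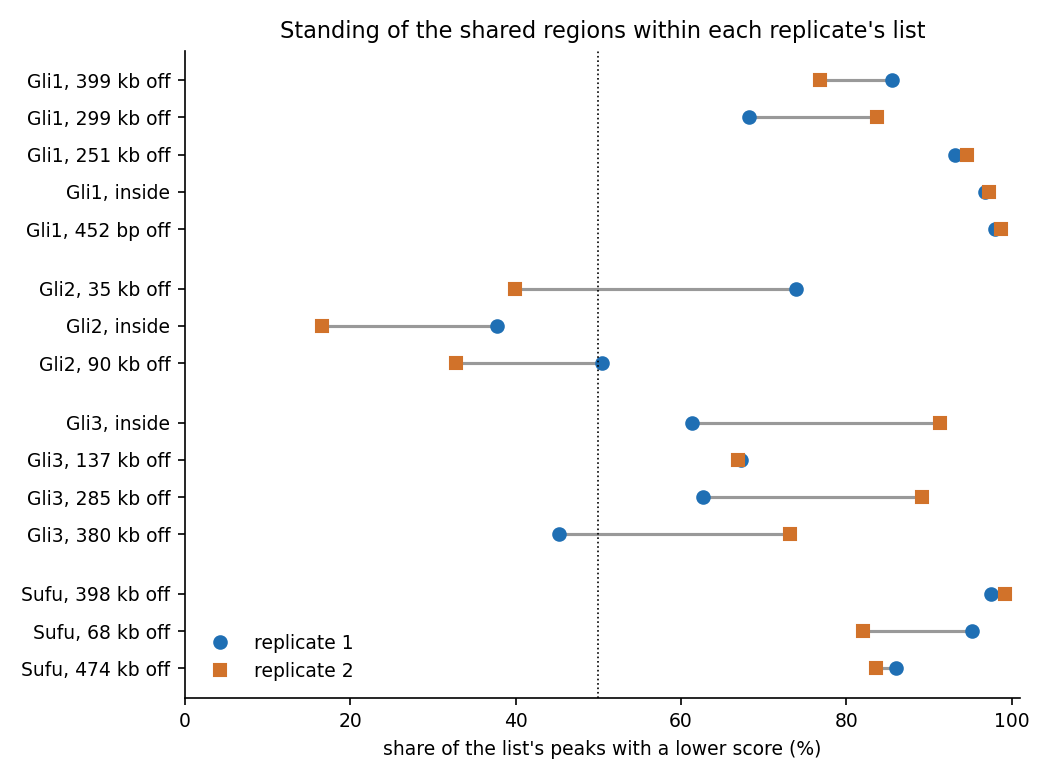
Standing of each of the 15 shared regions in the 2 lists, as the share of that list's peaks with a lower score (x axis, in %), with rows grouped by gene and named by distance from it. Circles are replicate 1 and squares replicate 2; the symbols nearly coincide for the pair at Gli1 (97 to 99%), lie apart with replicate 2 lower for Gli2, and lie apart with replicate 2 higher for 3 of 4 Gli3 window regions.

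The rest of the hedgehog pathway was described by 27 genes for ligands, their release, receptors, co-receptors, transducers and known response genes. A shared region lay inside 3 of the 4 members (Gli1, Gli2 and Gli3, not Sufu), inside 3 of the 27 genes (11.1%) and inside 8.32% of all protein-coding genes. Among genes of like length, the share was 3.5% for Gli1, 40.3% for Gli2, 47.1% for Gli3 and 18.1% for Sufu. Within 500 kb, all 4 members had one, as did 24 of the 27 genes (88.9%), with a median of 3 regions, and 78% of all genes. The shares of the 27 genes lie near the background, but a share does not show how many regions a gene has. Within 500 kb the counts of the 27 genes ran from 0 at Shh to 18 at Ptch1, against a median of 2 over all genes. Among ligand genes, Shh had no shared region inside it or within 500 kb, and replicate 1 alone placed 1 peak in it. Disp1, which releases the ligand from cells, held 1 region on chromosome 1 (183194114 to 183194473), with scores of 179 in replicate 1 and 174 in replicate 2. The receptor gene Ptch1, also a pathway target, held 2 on chromosome 13, of which the stronger (63563092 to 63563399) had scores of 327 in replicate 1 and 171 in replicate 2. The weaker (63566797 to 63566984) had scores of 36 in replicate 1 and 51 in replicate 2. Evc2, a ciliary transducer of the Smoothened signal, held 1 on chromosome 5 (37356076 to 37356252), with scores of 45 in replicate 1 and 67 in replicate 2. In each replicate the region inside Gli1 scored higher than these 4. A region lay within 1 kb of an end of 3 of the 27 genes (11.1%), which are named here after their values were seen, against 4.9% of all genes. At Cdon, a co-receptor gene, it had scores of 587 in replicate 1 and 352 in replicate 2. At Prkaca, a catalytic subunit of protein kinase A, the scores were 104 in replicate 1 and 146 in replicate 2, and at Gas1, another co-receptor gene, 21 in replicate 1 and 83 in replicate 2. The region beyond the end of Gli1, with 766 in replicate 1 and 741 in replicate 2, scored higher than these 3. When each list was taken by itself, shared peaks included, 6 of the 27 genes held a peak in replicate 1 and 5 in replicate 2.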

How the data were processed

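The authors deposited 1 peak list per ChIP sample, giving positions and whole-number scores; samples were grouped and numbered by their titles. Per the labels' protocols, chromatin was fixed in 1% formaldehyde and sheared to 150 to 400 bp, ISL1 was pulled down with a rabbit monoclonal antibody, and reads were 75 bp long. The submitters' processing notes name Trimmomatic 0.35, Bowtie2 2.2.6, MACS2 2.1.0.20150731, bedtools and mm10. How the score and threshold were set, and how input was used, is not given in the sources used here.

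Overlapping peaks (at least 1 bp) were joined and placed by the midpoint of their longest overlap; a region's score in a replicate is that of its highest peak. RefSeq tables of GRCm38.p6, whose coordinates are those of mm10, gave gene positions without strand or exons (mitochondrial genes left out) and, for 3 of the 4 members, the start. The members and lists were chosen with earlier results of these data known. Genes were named where they are members, are nearest to one of the 3 highest other regions of a window, or, in the hedgehog list, hold a region; Shh and Ptch1 were named in any case. Genes at peaks of a single list (Clasp1, Ralb, Ctdsp2, Ldb1), and Cdon, Gas1 and Prkaca, were named after their values were seen. The pseudogene B230303A05Rik was named because regions of the Gli3 window lie in it. Alternatives were each list alone, 50% reciprocal overlap, scores of at least 50 or 100, windows of 250 kb or 1 Mb, and any base in place of the midpoint. Region joining was tested on simulated data. Python 3.11.15, pandas 2.3.3, scipy 1.17.1 and matplotlib 3.10.9 were used.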

Additional observations from a re-analysis of the deposited data

How the results depend on the processing

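Of 68 values under alternatives, 54 stayed within 1.5 times the reported count and 14 moved beyond it. With a window of 250 kb the count was 2 for Gli1, 2 for Gli3 and 1 for Sufu, and with 1 Mb it was 9 for Gli1 and 5 for Sufu; wider or narrower windows take in more or fewer regions by construction. With both scores of at least 100, Gli2 had 0 regions in its window and 0 inside. In the lists of single replicates, Gli1 had 1 to 2 peaks inside, Gli2 had 4 to 8 in its window and 2 to 3 inside, Sufu had 3 to 5 in its window, and 5 to 6 genes of the hedgehog list had a peak inside. Reciprocal overlap, a score of at least 50 and the use of any base in place of the midpoint moved none of the counts they were run on beyond 1.5 times. No paired analysis was possible because no peak list was given for input DNA, whose replicate numbers match those of the ChIP. With no read counts, a gene without a peak, such as Sufu, is not shown to be unbound.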

Other observations

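Among the peaks in 1 list alone, 1 in the Sufu window lay inside Ldb1, which encodes a cofactor that binds LIM-homeodomain proteins (chromosome 19, 46039565 to 46039695, score 44, replicate 2). It was singled out after its values were seen, and 6.86% of replicate 2 peaks scored lower. In the Gli1 window, replicate 1 alone had a peak inside Ctdsp2, a phosphatase gene (chromosome 10, 126978907 to 126979042, score 127).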
